A study of Mus musculus with 6 samples.

Results

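The genes examined here were the nuclear genes for the subunits of respiratory complexes II, III and IV, for cytochrome c and for the ATP synthase, also called complex V, in fully-grown mouse oocytes at the germinal vesicle stage. They were taken by symbol as every row named Sdha to Sdhd, Cyc1, Cycs, or starting with Uqcr, Cox4 to Cox8 or Atp5, without pseudogene copies. The rule found 46 of the 28738 genes in the deposited table, 4 of complex II, 10 of complex III with cytochrome c, 15 of complex IV and 17 of complex V, and 2 pseudogene rows were left out. RNA sequencing covered 3 control libraries and 3 libraries of a conditional Uba3 knockout (Uba3 cKO), with about 150 pooled oocytes behind every library. Both groups carried the strain label C57/Bl6/N;129SvEv7. The UBA3 protein is part of the enzyme that activates NEDD8, a small ubiquitin-like protein that is attached to other proteins. The sources used here do not give the promoter that drove the recombinase, the deleted part of Uba3 or the age of the animals. Whether different animals gave the different pools is not stated in the labels, and the p-values here cover the spread among the 6 pools, which may be technical.

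Complexes II, III and IV pass electrons from succinate and from reduced coenzyme Q to oxygen, and complexes III and IV pump protons out of the mitochondrial matrix as they do so. The ATP synthase lets the protons flow back through its membrane ring and uses the turning of that ring to make ATP. All subunits of complex II are encoded in the nucleus, while complexes III, IV and V combine nuclear subunits with a few encoded by mitochondrial DNA. Oocytes hold very many mitochondria, depend on oxidative phosphorylation for ATP, and pass their mitochondria on to the embryo. The series title names NEDD8 attachment, mitochondrial transcription and oocyte quality, and the comparison asks how transcripts of the nuclear subunits stood with and without Uba3.

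Promoter sequence, which the symbol rule did not use, was searched for the letters of 4 transcription factor motifs. Promoters, defined as 250 bases before to 50 bases after the annotated start, were read from RefSeq (GRCm38.p6) for 35 of the 46 genes. The 10-letter motif of nuclear respiratory factor 1 (NRF1), a transcription factor known for its sites in respiratory chain genes, occurred on either strand in 10 of the 35 (28.6%). It occurred in 5.19% of all 27025 genes with a promoter and in 10.2% of the 12048 of them that were tested for expression here. The letters CCGGAAG, the core recognised by ETS factors such as the GABP complex, occurred in 12 of 35 (34.3%), in 9.93% of all genes and in 17.8% of tested genes. The YY1 letters AAGATGGC were in 3 of 35 promoters (8.57%, against 3.19% of all genes and 4.70% of tested genes) and the estrogen-related receptor letters TCAAGGTCA in 2 of 35 (5.71%, against 0.466% of all and 0.349% of tested genes). The NRF1 or the ETS letters were in 18 of the 35 (51.4%, against 25.7% of tested genes), and no test of these shares was made. These are letter matches on either strand and not measured binding sites. The stretches below end at the base before the start, with matches to the NRF1 motif (10 capitals) and the ETS letters (7 capitals) on either strand in capitals. Complex II was chosen because its members lay furthest apart in the comparison with the knockout. Its genes Sdha, Sdhb and Sdhd are shown, and Sdhc is not. Cox6a1 is 1 of 4 genes with both kinds of match, the others being Atp5h, Atp5k and Sdhd.
Sdha (chr13:74350241-74350360, minus strand): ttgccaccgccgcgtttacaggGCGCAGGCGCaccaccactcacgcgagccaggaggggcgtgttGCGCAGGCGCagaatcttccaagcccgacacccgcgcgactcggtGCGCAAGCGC
Sdhb (chr4:140961151-140961270, plus strand): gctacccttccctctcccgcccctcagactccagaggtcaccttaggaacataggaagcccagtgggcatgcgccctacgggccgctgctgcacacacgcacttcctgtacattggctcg
Sdhd (chr9:50603850-50603969, minus strand): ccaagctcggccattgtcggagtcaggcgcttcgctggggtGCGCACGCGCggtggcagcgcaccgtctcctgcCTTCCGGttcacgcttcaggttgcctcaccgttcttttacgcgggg
Cox6a1 (chr5:115348959-115349138, minus strand): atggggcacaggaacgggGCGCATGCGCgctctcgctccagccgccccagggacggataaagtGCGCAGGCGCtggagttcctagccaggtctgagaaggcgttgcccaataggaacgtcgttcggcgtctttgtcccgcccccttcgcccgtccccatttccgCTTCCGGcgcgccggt
Sdha held 3 NRF1 matches, Sdhd held 1 NRF1 and 1 ETS match, and Cox6a1 held 2 NRF1 matches and 1 ETS match. The stretch of Sdhb before its start held none, and its ETS match began at base 7 after the start. Of the 34 that were also tested for expression, those with an NRF1 match had a median log2 difference between the groups of -0.12 (n = 10, from -0.20 to 0.13), and those without one had -0.12 (n = 24, from -0.35 to 0.054).

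The targeted gene checked the labels. Uba3 stood at 11.37, 11.46 and 11.34 on the log2 scale in the control libraries and at 10.03, 10.16 and 10.36 in the Uba3 cKO libraries, a difference of -1.21 (SE 0.10, adjusted p = 2.07e-05 in limma). Over the 17450 tested genes, libraries correlated at 0.995 to 0.998 in pairs, and 984 genes rose (5.64%) and 437 fell (2.5%) at an adjusted p under 0.05. All 12 oocyte markers listed passed the level filter described below. Their summed linear level ran from 445000 to 506000 in control and from 397000 to 436000 in Uba3 cKO libraries, and 2 of them, Zp2 and Bmp15, fell. Of 12 theca and stroma markers 11 passed and 5 fell, and their summed level ran from 1820 to 2830 in control and from 1460 to 1610 in Uba3 cKO libraries, with Insl3 under the filter. Of 12 granulosa and cumulus markers 11 passed, 2 rose and 1 fell, and their sums overlapped (15600 to 19600 and 14000 to 17900), with Ptx3 under the filter. Of 7 blood and immune markers 6 passed and 2 fell, with sums of 551 to 663 and 503 to 552 and Cd3e under the filter, and of 5 endothelial markers 5 passed and 1 fell, with sums of 3640 to 3970 and 3710 to 4230. Over the markers that passed, the median log2 difference was -0.18 for oocyte and -0.093 for granulosa and cumulus markers. It was -0.48 for theca and stroma, -0.088 for blood and immune and 0.0023 for endothelial markers. The part of these shifts in the values below was not tested. In pooled oocytes, fewer cells of a type and less RNA per cell cannot be told apart.

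Nearly all of these genes were expressed. The level filter, a linear value of 10 or more in at least 3 libraries, was passed by 45 of 46, and only Cox7a1 fell under it. Per kilobase of transcript, the level in control libraries ran over a 129.9-fold range among the 45, and 23 of the 46 stood at 10 or more on the log2 scale. The highest was Atp5h, the d subunit of the ATP synthase stalk, at 12.46 ± 0.16 (SD, n = 3). Cox7c (12.35 ± 0.39, SD, n = 3) and Cox6c (12.14 ± 0.11, SD, n = 3), both small subunits of complex IV, and Atp5b, the catalytic beta subunit (12.14 ± 0.08, SD, n = 3), came next. Each overlapped its neighbour in this order, while Atp5h was above Cox6c and Atp5b in every control library. The order depends on the transcript lengths chosen, since the annotated principal transcripts put Atp5h between 12.34 and 12.83 and Cox6c between 11.86 and 12.41. The lowest of those that passed was Atp5s (5.44 ± 0.04), which despite its symbol is not a structural subunit of the enzyme and is named Dmac2l in RefSeq. Subunits that are needed in equal number within a complex did not have equal transcript levels: in the catalytic head of the ATP synthase, the gamma subunit gene Atp5c1 stood at 10.21 per kilobase, the epsilon gene Atp5e at 8.67 and the delta gene Atp5d at 7.49. In complex III, the core protein gene Uqcrc2 stood at 11.75 per kilobase and its partner Uqcrc1 at 8.25.

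**Figure D1:**
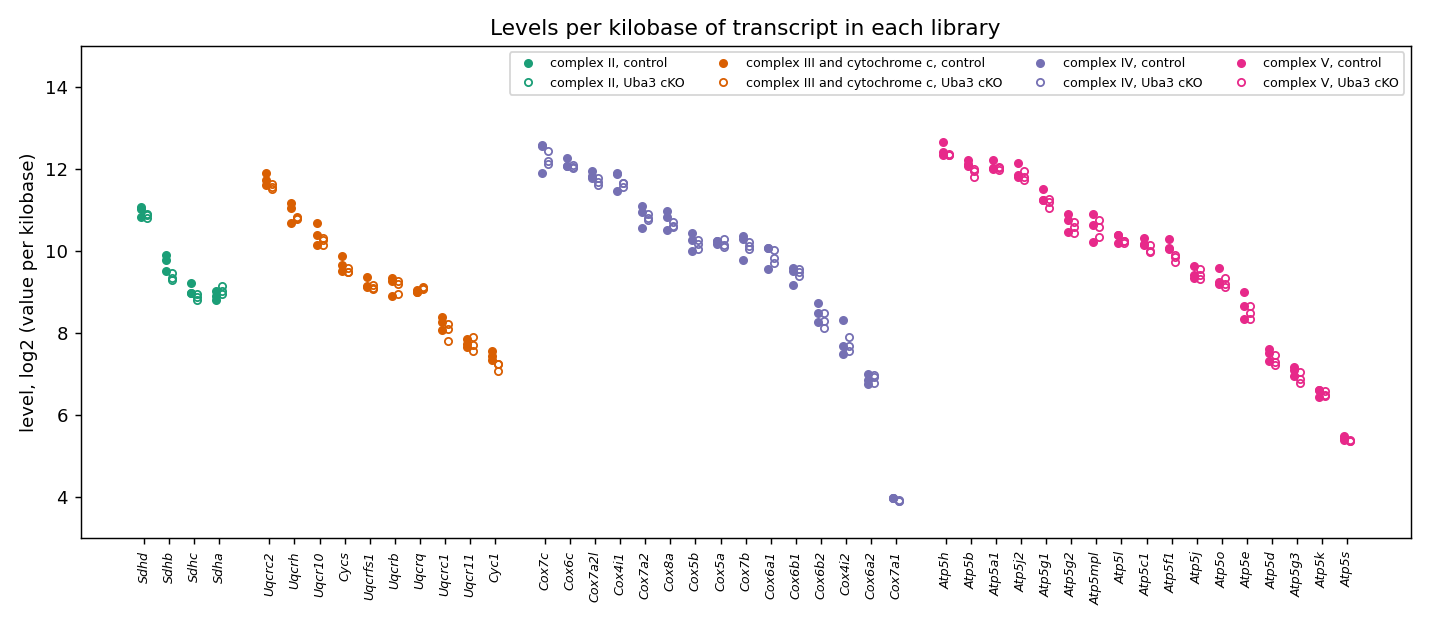
Level of each of the 46 genes in each library as log2 of the linear value per kilobase of transcript, ordered within each complex. Filled points are control and open points Uba3 cKO libraries (3 each); genes spread far more within a complex than a gene does between the groups, and Cox7a1 stands apart at the bottom.

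No subunit gene was called in the comparison of Uba3 cKO with control oocytes. Of the 45 genes 0 were called by limma, where 8.14% of all tested genes were, and the smallest adjusted p was 0.0735. At an unadjusted p under 0.05 there were 4, all lower in Uba3 cKO libraries (8.89% of the 45), and 0 higher, against 9.78% lower and 13% higher over all tested genes. Differences were small and mostly below 0. The median log2 difference was -0.11, which is a 7.54% lower level, beside -0.0061 over all tested genes, and 41 of the 45 lay below 0 against 51.8% of all. The median was -0.15 in complex II (3 of 4 below 0), -0.16 in complex III with cytochrome c (9 of 10), -0.075 in complex IV (12 of 14) and -0.12 in complex V (17 of 17). For 40 of the 45 the difference was within 0.2 of 0. Over all 45, the 95% intervals of the difference reached from -0.60 to 0.34, so a fall by more than 1.51-fold or a rise by more than 1.26-fold lay outside the interval of each gene. The groups did not overlap for 7 genes that were lower and 1 that was higher in Uba3 cKO libraries, against 12.8% and 15.1% of all tested genes.

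**Figure D2:**
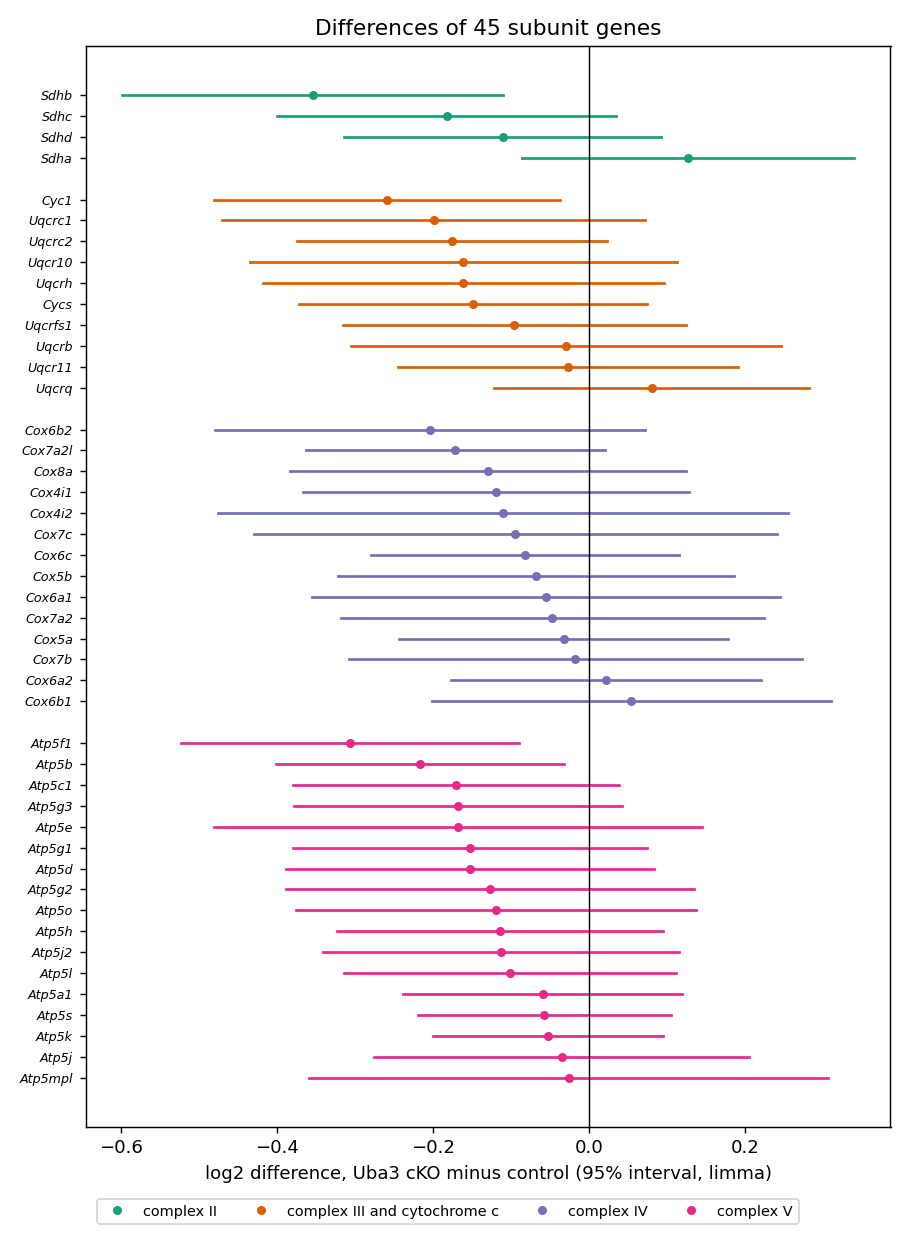
Log2 difference of Uba3 cKO minus control for the 45 genes that passed the level filter, with 95% intervals from limma and 3 libraries a group. Points are coloured by complex and ordered by difference, and 41 of 45 intervals include 0, the exceptions being Sdhb, Cyc1, Atp5f1 and Atp5b.

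Complex II, succinate dehydrogenase, held both the lowest and the highest difference of all 45 genes. Sdhb, the iron-sulfur subunit (ENSMUSG00000009863, chromosome 4), stood at 9.98, 10.09 and 9.70 in control and at 9.49, 9.67 and 9.55 in Uba3 cKO libraries. Every Uba3 cKO library was below every control library, and the nearest pair was 9.67 against 9.70. The difference was -0.35 (SE 0.11, adjusted p = 0.0735), and without control replicate 3 it was -0.46 with an adjusted p of 0.0494, the only call of a subunit gene in any setting tried. Sdha, the flavoprotein that oxidises succinate (chromosome 13), stood at 10.56, 10.34 and 10.45 in control and at 10.68, 10.50 and 10.56 in Uba3 cKO libraries. Its groups overlapped and its difference was 0.13 (SE 0.10, adjusted p = 0.486). Sdhc, a membrane anchor that binds coenzyme Q, stood at 10.65, 10.89 and 10.65 in control and at 10.63, 10.54 and 10.48 in Uba3 cKO libraries. These groups did not overlap, by a narrow margin, with a difference of -0.18 (SE 0.10, adjusted p = 0.307). The other anchor, Sdhd, overlapped, with 11.32, 11.36 and 11.14 in control and 11.18, 11.20 and 11.11 in Uba3 cKO libraries (difference -0.11, adjusted p = 0.527).

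Among the 10 genes of complex III and cytochrome c, 9 differences were below 0 and limma called 0, with 1 at an unadjusted p under 0.05. Cyc1, the cytochrome c1 subunit that hands electrons to cytochrome c (chromosome 15), stood at 8.05, 8.16 and 7.95 in control and at 7.69, 7.85 and 7.85 in Uba3 cKO libraries. The groups did not overlap, and the difference was -0.26 (SE 0.10, adjusted p = 0.147). Uqcrc2, a core protein, stood at 12.66, 12.82 and 12.53 in control and at 12.43, 12.48 and 12.57 in Uba3 cKO libraries. Its highest knockout library lay above its lowest control library, with a difference of -0.18 (adjusted p = 0.282). Uqcrc1, the other core protein, stood at 9.12, 8.80 and 9.01 in control and at 8.54, 8.96 and 8.83 in Uba3 cKO libraries. Its groups overlapped, and the difference was -0.20 (adjusted p = 0.374). The Rieske iron-sulfur protein gene Uqcrfs1 differed by -0.096. Of the 5 small subunits, Uqcr10 and Uqcrh each differed by -0.16, Uqcrb by -0.030, Uqcr11 by -0.027 and Uqcrq by 0.080, a range that overlaps that of the core and catalytic genes. Uqcrh, the hinge protein, stood at 9.82, 10.31 and 10.17 in control and at 9.92, 9.93 and 9.97 in Uba3 cKO libraries, so that control replicate 1 was the lowest of all 6. Uqcrq was the 1 gene of the 45 whose knockout libraries were all above the controls, at 7.77, 7.81 and 7.81 against 7.70, 7.70 and 7.76 (adjusted p = 0.663). Cycs, which encodes the mobile carrier cytochrome c, stood at 11.16, 11.52 and 11.29 in control and at 11.24, 11.13 and 11.15 in Uba3 cKO libraries. Its groups overlapped, with a difference of -0.15 (adjusted p = 0.425).

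Complex IV, cytochrome c oxidase, had the median difference nearest to 0 of the 4 groups, with values from -0.20 to 0.054, and the widest spread among controls (median SD 0.23, beside 0.13 to 0.16 in the other groups). Cox7a2l, a factor known for joining complexes III and IV into supercomplexes, stood at 11.94, 12.06 and 11.89 in control and at 11.73, 11.78 and 11.88 in Uba3 cKO libraries. It was the 1 gene of complex IV whose groups did not overlap (difference -0.17, SE 0.09, adjusted p = 0.274). Cox4i1, a regulatory subunit that binds ATP, stood at 11.04, 11.44 and 11.48 in control and at 11.24, 11.13 and 11.24 in Uba3 cKO libraries. Cox7c stood at 11.01, 11.70 and 11.68 in control and at 11.55, 11.32 and 11.24 in Uba3 cKO libraries. Both had control replicate 1 as the lowest of the 6 libraries and the other controls as the highest, and their differences were -0.12 and -0.095. Cox8a showed the same order, with 9.65, 10.11 and 9.96 in control and 9.85, 9.74 and 9.73 in Uba3 cKO libraries (difference -0.13, adjusted p = 0.557). Cox6c stood at 11.36, 11.54 and 11.35 in control and at 11.38, 11.33 and 11.29 in Uba3 cKO libraries, which overlapped (difference -0.082). Cox7b, on the X chromosome, stood at 9.79, 10.36 and 10.31 in control and at 10.23, 10.13 and 10.04 in Uba3 cKO libraries, a difference of -0.018. Cox5a and Cox5b, also nuclear subunits of the complex, differed by -0.033 and -0.068.

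Among the 17 genes taken as complex V, which include Atp5s, all differences were below 0, from -0.31 to -0.026. Without control replicate 2, 13 of the 17 differences were below 0 and 4 above. Atp5f1, the b subunit of the peripheral stalk that holds the catalytic head still (ENSMUSG00000000563, chromosome 3, RefSeq symbol Atp5pb), stood at 10.74, 10.98 and 10.75 in control and at 10.55, 10.58 and 10.43 in Uba3 cKO libraries. The groups did not overlap, and the difference was -0.31 (SE 0.10, adjusted p = 0.0813). Atp5b, the catalytic beta subunit, stood at 13.07, 13.16 and 13.00 in control and at 12.75, 12.88 and 12.95 in Uba3 cKO libraries, also without overlap (difference -0.22, SE 0.09, adjusted p = 0.146). Atp5c1, the gamma subunit that forms the rotating shaft, stood at 10.40, 10.53 and 10.37 in control and at 10.20, 10.37 and 10.22 in Uba3 cKO libraries, where the nearest libraries of the groups differed by less than 0.01 (difference -0.17, adjusted p = 0.320). Atp5h had the highest mean control level per kilobase of the set with the transcript lengths chosen. It stood at 11.66, 11.97 and 11.73 in control and at 11.65, 11.69 and 11.67 in Uba3 cKO libraries. Its knockout values were close together and overlapped the controls (difference -0.11, adjusted p = 0.529). Atp5a1, the alpha subunit, differed by -0.060. The median was -0.17 over the 5 genes of the catalytic head, -0.15 over the 3 genes of the c ring, -0.12 over 4 genes of the peripheral stalk and -0.077 over 4 small membrane subunits, groupings made after the values were seen. The intervals of these genes overlap each other, and no group of them was tested against another.

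The controls differed among themselves. Control replicate 2 was the highest of the 6 libraries for 30 of the 45 genes (66.7%), where it was the highest for 21.3% of all tested genes. Its median deviation from each gene's mean was 0.20, while control replicate 1 was at -0.071, control replicate 3 at 0.046 and the Uba3 cKO libraries at -0.032, -0.073 and -0.060. The mean of the Uba3 cKO libraries was below control replicate 2 for 42 of 45 genes and below control replicate 3 for 39, but below control replicate 1 for 16. Without control replicate 2 the median difference of the 45 was -0.025, and that of complex IV turned to 0.021. Complexes II, III and V then had medians of -0.083, -0.044 and -0.028, and without control replicate 1 the median of all 45 was -0.19. Control replicate 2 also had the highest summed level of the oocyte, the granulosa and cumulus and the theca and stroma markers, and the part of these in the subunit values was not tested.

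**Figure D3:**
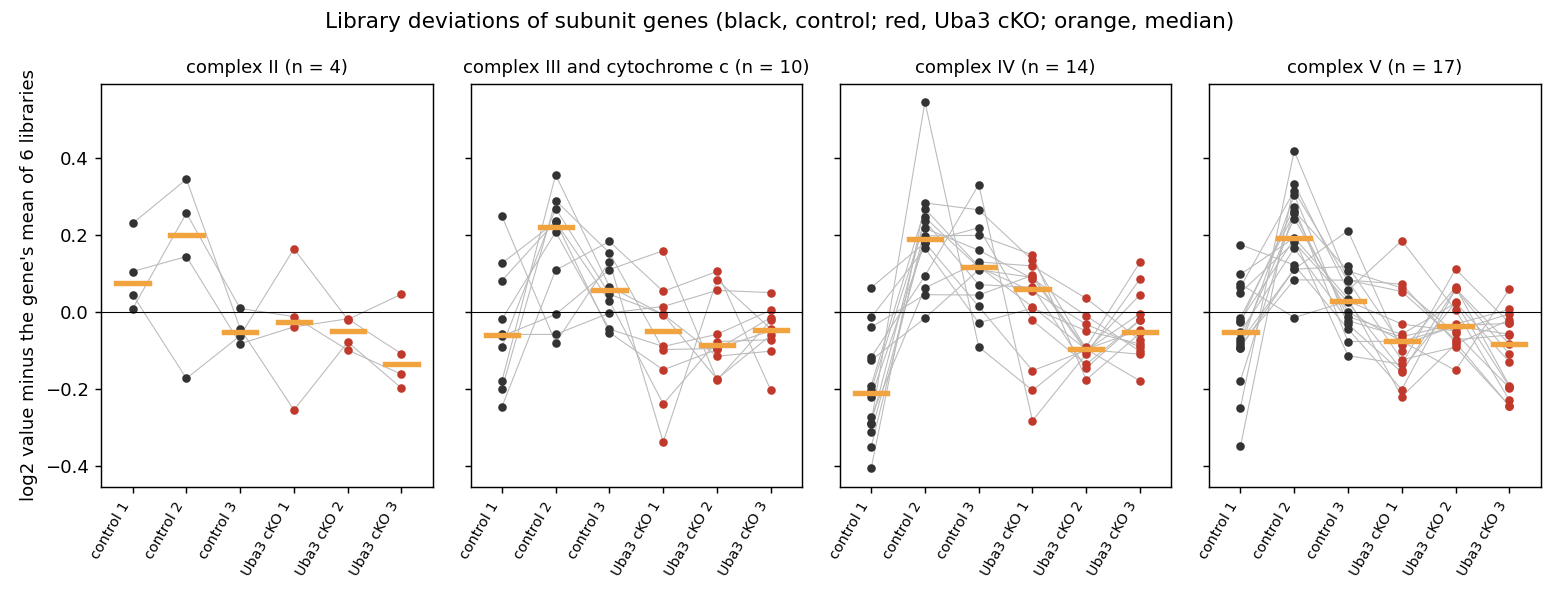
Deviation of each gene from its own mean over the 6 libraries, on the log2 scale, in 4 panels by complex. Grey lines join the values of a gene, points are libraries and orange bars are medians; control 2 is high in every panel, and control 1 is low in complex IV (median -0.21) but above 0 in complex II (0.075).

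Complexes differed in how the controls were ordered. In complex IV control replicate 1 was the lowest of the 6 libraries for 10 of 14 genes, and control replicates 2 and 3 exceeded it by medians of 0.42 and 0.36. In complex II the same gaps were 0.077 and -0.15, and control replicate 1 was the lowest library for 0 of 4 genes. Complex V lay between them, with gaps of 0.22 and 0.030. Transcript length moved with these gaps. The 29 genes with transcripts under 1000 bases had control replicate 1 as their lowest control in 25 cases, against 5 of the 16 longer ones. Across the 45 genes, which share the same libraries, log2 transcript length and the gap between control replicates 3 and 1 had a Pearson correlation of -0.55 and a Spearman correlation of -0.61. The median transcript of the 45 was 727 bases long, against 2556 over all tested genes. Over all 2409 tested genes under 1000 bases the gap between control replicates 3 and 1 had a median of 0.027, and their median difference between the groups was -0.0033. Among the 45, the median difference was -0.10 for the 29 genes under 1000 bases and -0.17 for the 16 longer ones. Log2 transcript length and the difference between the groups had a Pearson correlation of -0.25 and a Spearman correlation of -0.36. With each library corrected for transcript length and GC content, the median difference of the 45 was -0.090 and 0 were called. The part of transcript length in these differences was not tested. The spread of the controls was also wider in these genes, with a median SD of 0.16 in control and 0.095 in Uba3 cKO libraries, beside 0.093 and 0.089 over all tested genes.

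Several subunits of complex IV and the c ring of the ATP synthase are encoded by alternative genes. Some of the complex IV forms are known from muscle, lung or testis. In these oocytes Cox4i1, Cox6a1, Cox6b1 and Cox7a2, the widely expressed forms, had higher levels per kilobase than Cox4i2, Cox6a2, Cox6b2 and Cox7a1 in every library. Cox4i2, the form known from lung, stood at 7.03, 7.86 and 7.23 in control and at 7.11, 7.23 and 7.45 in Uba3 cKO libraries on the log2 scale, and per kilobase it was 15.1-fold below Cox4i1 in control. Cox6a2, the muscle form, stood at 6.20, 6.31 and 6.44 in control and at 6.42, 6.23 and 6.37 in Uba3 cKO libraries. Its widely expressed partner Cox6a1 stood at 8.77, 9.28 and 9.28 in control and at 9.23, 8.90 and 9.02 in Uba3 cKO libraries, and was 8.24-fold higher per kilobase in control. The other muscle form, Cox7a1, stood at 2.63 to 2.64 in control and 2.56 to 2.60 in Uba3 cKO libraries and did not pass the filter. Cox7a2, its widely expressed counterpart, stood at 9.95, 10.49 and 10.36 in control and at 10.30, 10.21 and 10.15 in Uba3 cKO libraries, a difference of -0.047. Cox7b2, Cox8b and Cox8c were not analysed here.

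The testis form Cox6b2 was closer to its partner than the muscle and lung forms were to theirs. Cox6b2 stood at 7.43, 7.64 and 7.88 in control and at 7.26, 7.44 and 7.63 in Uba3 cKO libraries. Cox6b1, which caps the complex on the side of the intermembrane space, stood at 8.49, 8.82 and 8.89 in control and at 8.88, 8.80 and 8.69 in Uba3 cKO libraries. Per kilobase Cox6b2 reached 52.6% of the level of Cox6b1 in control, where Cox6a2 reached 12.1% of Cox6a1 and Cox4i2 6.63% of Cox4i1. The log2 ratio of Cox6b2 to Cox6b1 was -0.93 with an SD of 0.09 in control and -1.19 with an SD of 0.28 in Uba3 cKO libraries (n = 3 each), and the groups overlapped (exact two-sided permutation p = 0.3). Cox7a2l was 1.99-fold above Cox7a2 per kilobase in control. For the c ring, Atp5g1 stood at 10.70, 10.97 and 10.71 in control and at 10.66, 10.74 and 10.52 in Uba3 cKO libraries. Atp5g2 stood at 9.28, 9.72 and 9.57 in control and at 9.52, 9.41 and 9.26 in Uba3 cKO libraries. Atp5g3 stood at 6.68, 6.63 and 6.46 in control and at 6.30, 6.56 and 6.39 in Uba3 cKO libraries, a difference of -0.17 (adjusted p = 0.331). These 3 genes encode the same mature protein, and Atp5g3 had the lowest level of them in every library. Per kilobase Atp5g3 was 19.1-fold below Atp5g1 in control. This value depends on the transcript chosen, because the longest principal transcript of Atp5g1 lowers its level from 11.33 to 8.56. Of the 6 ratios between alternative genes that could be tested, the smallest exact two-sided permutation p was 0.3 (adjusted p = 1), where 3 against 3 libraries can reach 0.1.

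**Figure D4:**
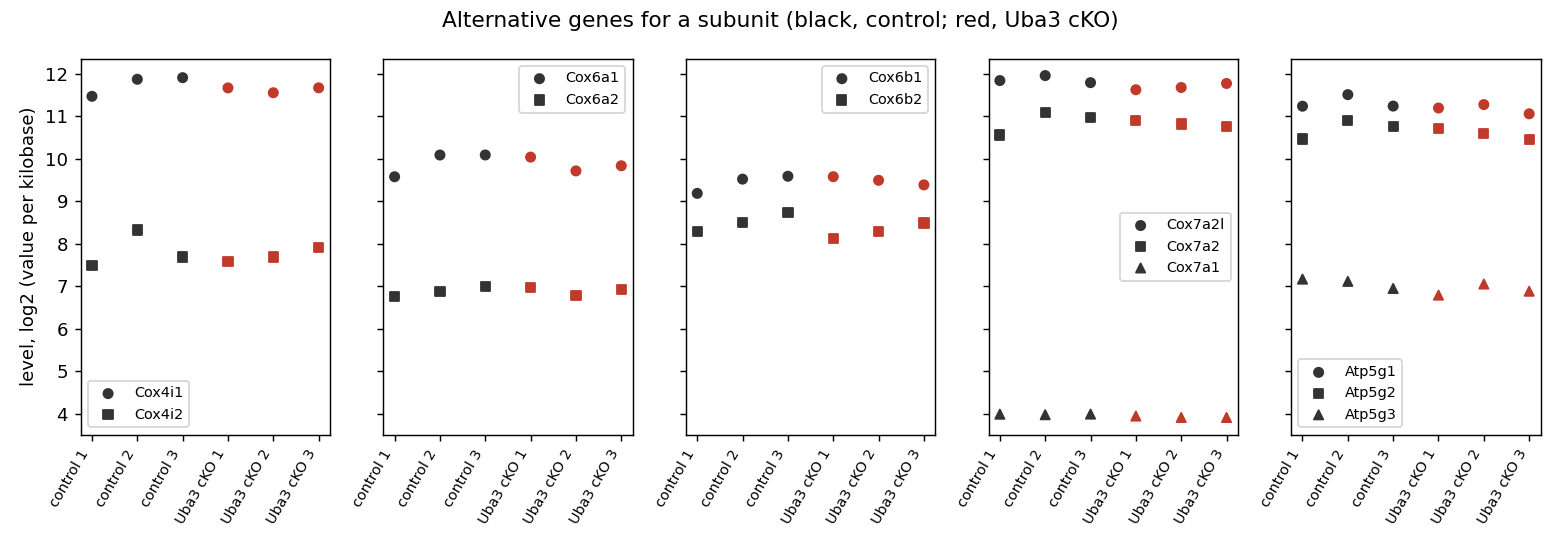
Level per kilobase of transcript, on a log2 scale, of the alternative genes for a subunit in each of the 6 libraries. Symbols mark genes and colours mark control and Uba3 cKO. The order of the genes is the same in all 6 libraries of each panel, and Cox6b2 lies nearer to Cox6b1 than Cox4i2 and Cox6a2 lie to their partners. Which of Atp5g1 and Atp5g2 is higher depends on the transcript lengths chosen.

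Genes that act with these subunits showed single calls. Of 39 assembly factors of complexes II to V listed, 38 were in the table and tested. Of these 1 fell and 37 were not called (median -0.065), where 2.5% of all tested genes fell and 5.64% rose. The gene called was Sdhaf3, an assembly factor for the iron-sulfur subunit of complex II encoded by Sdhb. It stood at 7.93, 7.95 and 7.97 in control and at 7.63, 7.61 and 7.54 in Uba3 cKO libraries, with a difference of -0.36 (SE 0.09, adjusted p = 0.0333). Replicates were close together and the groups far apart, but leaving out a library ended the call in 5 of 6 cases, all but control replicate 1 (adjusted p up to 0.118) and under the replicate block (adjusted p = 0.0641). Among the factors not called, Lrpprc, which stabilises mitochondrial mRNAs, differed by -0.11. Among 37 tested nuclear subunits of complex I, 0 were called by limma, and the median was -0.12. At an unadjusted p under 0.05, 3 were lower and 1 higher, against 9.78% lower and 13% higher over all tested genes. Ndufb11, a membrane arm subunit, stood at 9.73, 10.27 and 10.23 in control and at 10.38, 10.11 and 10.15 in Uba3 cKO libraries, which overlapped (difference 0.14, adjusted p = 0.597). Control replicate 2 was the highest library for 20 of these 37 (54.1%). Of 6 listed subunits of complexes III to V encoded by mitochondrial DNA, 4 were tested and 1 was called. The gene mt-Cytb fell (-0.38, adjusted p = 0.0281) and mt-Co1 was not called (-0.27, adjusted p = 0.0783). Also not called were mt-Co3 (-0.11) and mt-Co2 (-0.016), with control means of 5.85 and 3.42 beside 15.36 for mt-Co1. The level filter lay at 3.32 on this scale, and mt-Atp6 was under it. For mt-Cytb the lowest library among the controls was replicate 2, at 11.40 against 11.65 and 11.68, whereas it was the highest library for most nuclear subunits. The Uba3 cKO libraries stood at 11.18, 11.23 and 11.18. Leaving out replicate 1 or 3 of either group ended this call (adjusted p up to 0.143). Ndufa4, now counted as a subunit of complex IV, differed by -0.11 (adjusted p = 0.554), Usmg5, a small ATP synthase subunit, by -0.20 (adjusted p = 0.282), and Atpif1, the inhibitor of the ATP synthase, by 0.096 (adjusted p = 0.671). Among 4 tested genes that also feed electrons into coenzyme Q (Etfa, Etfb, Etfdh and Dhodh) 0 were called by limma, and 0 had an unadjusted p under 0.05. Etfa and Dhodh, those with the highest level per kilobase, differed by 0.0023 and 0.13.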

How the data were processed

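RNA was extracted with a PicoPure kit and sequenced from Illumina TruSeq libraries on a NovaSeq, per the labels' protocols. Per the submitters' processing notes, the tools included fastp, STAR, DESeq2 and featureCounts, with the build GRCm39. Strand setting, tool versions and the handling of multiply mapped reads: not given in the sources used here. Genes with processed copies or overlapping neighbours are therefore uncertain. The authors deposited normalized log2 values; the transform is not named, and if it is a regularized logarithm, changes of low genes are shrunken. Depth is unknown.

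Symbols and transcript lengths came from GENCODE M21, matched for 27660 of 28738 IDs; each length is the lower median over the principal transcripts. Genes with a linear value of 10 or more in at least 3 libraries were fitted together with limma 3.58.1 (R 4.3.3, intensity trend), and every adjusted p of a gene is Benjamini-Hochberg over all 17450. Pseudocounts belonged only to alternatives. Levels per kilobase divide linear values by transcript length. The subunit genes and lists were chosen with earlier results of these data known. Genes named in full were the 4 with the smallest p and the 2 with the highest level per kilobase of each complex, all alternative genes of a subunit, and called genes of related lists; any other named gene was picked with its values known. A gene that this rule names among related genes is not reported here. The main fit did not pair libraries by replicate number, and the sample titles do not say whether the numbers mark pairs.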

Additional observations from a re-analysis of the deposited data

How the results depend on the processing

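Alternatives covered the pseudocount, level filter, scaling, variance model, replicate block, length and GC correction, and leaving out each library. Outside the fits that left out a library, 0 subunit genes were called under every alternative and the median difference of the 45 lay between -0.13 and -0.090. With a library left out it lay between -0.19 and -0.025 and between 0 and 1 subunit genes were called (Sdhb, without control replicate 3). Over the same fits the medians lay between -0.20 and -0.083 for complex II, -0.17 and -0.044 for complex III with cytochrome c, -0.20 and 0.021 for complex IV, and -0.19 and -0.028 for complex V. Genes called over the whole table numbered between 618 (without control replicate 3) and 1637. Calls numbered between 0 and 1 among assembly factors, between 0 and 1 among complex I subunits, and between 0 and 2 among subunits encoded by mitochondrial DNA. The replicate block left 0 assembly factors called. Subunits encoded by mitochondrial DNA had 2 calls with no filter and 2 when libraries were corrected for length and GC. The causes were not tested. The block gave 1258 calls over the whole table, the same 0 among the 45 and 1 for mitochondrial DNA. Same-numbered libraries had correlations of deviations between -0.20 and -0.054, and libraries of different number between -0.20 and 0.28. The deviations were centred within each group, so these correlations cannot decide whether the numbers pair the libraries.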
